A study of Rattus norvegicus with 6 samples.

Results

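The Kruppel-like factors (KLFs) are zinc-finger transcription factors, and 10 of their genes were followed here in primary rat cells of the articular cartilage superficial layer. The members are Klf2, Klf3, Klf4, Klf5, Klf6, Klf7, Klf9, Klf10, Klf11 and Klf13, taken by symbol from a count table of 32161 genes that holds 17 numbered KLF genes. The shear group (3 libraries) comes from cells under flow at 20 dyne/cm², and the static group (3 libraries) from cells at 0 dyne/cm². Fluid shear stress is the drag of a moving fluid on the cell surface. The labels name no genotype, strain, sex or age, and say neither how long flow lasted nor whether libraries of one group stem from different cultures or animals. The spread behind the p-values is that between libraries and may thus be technical.

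KLFs bind CACCC and GC-rich boxes in DNA through zinc fingers at their C-terminal end, and differ in the N-terminal part that recruits activators or repressors. KLF2 and KLF4 are best known from endothelium, where steady laminar flow switches them on through a kinase cascade that ends in ERK5 and the MEF2 transcription factors. KLF9, KLF10, KLF11, KLF13, KLF14 and KLF16 belong to a branch that binds the SIN3 corepressor, and KLF3 works with the corepressor CtBP.

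All 10 members passed the filter on low counts, and 8 of them changed under shear. Klf2, Klf6, Klf7, Klf9, Klf10, Klf11 and Klf13 rose, Klf5 fell, and Klf3 and Klf4 did not pass the test (edgeR quasi-likelihood test, adjusted p under 0.05 over the 13945 genes tested). Among all genes tested 10.8% were higher and 7.71% were lower, 18.5% in all, beside 7 and 1 of the 10 members. The median log2 fold change of the members, shear over static, was 0.33, and that of all genes tested was -0.01. In CPM (counts per library scaled to a common effective size), the shear libraries lay wholly above the static ones for 6 members and wholly below for 1, while 32.7% of all genes tested had groups that did not overlap. The members were listed with results of these data known, so these shares describe the list and do not test it. The balance of all genes depended on the scaling of the libraries: 1508 were higher and 1075 lower as reported, 1275 and 1364 with upper-quartile factors, and 1124 and 1730 with library totals alone. With upper-quartile factors the members still split 7 and 1, and with library totals alone 6 and 1.

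**Figure D1:**
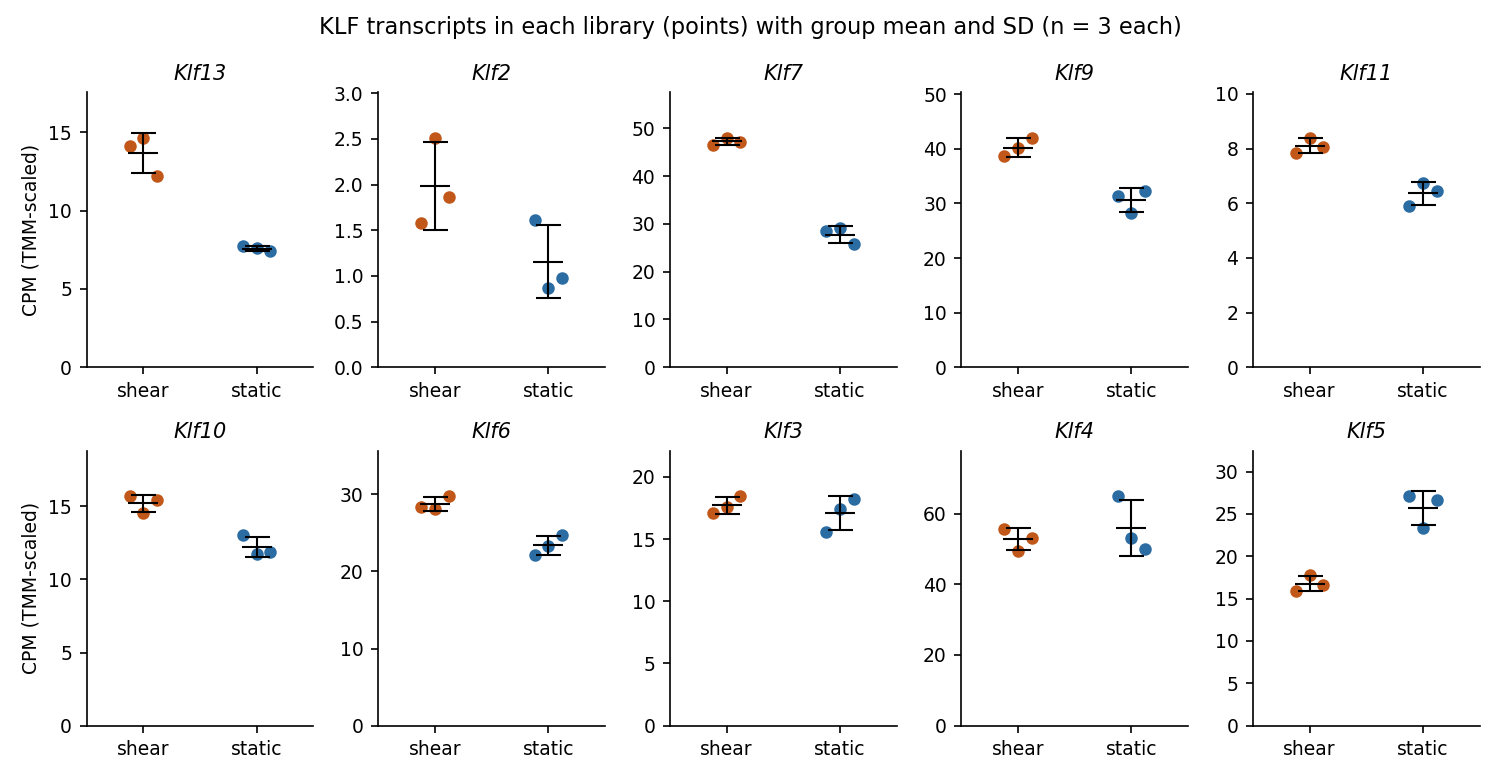
CPM of each KLF gene in the shear libraries (orange) and the static libraries (blue), with the group mean and SD in black (n = 3 each). In 7 of the 10 panels the groups do not overlap. Klf7 sits at 46.6 to 48.0 CPM in shear and 25.8 to 29.1 CPM in static libraries, while the points of Klf2, Klf3 and Klf4 overlap.

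The libraries were of even depth, with 33342775 to 33979479 counts each. The labelled cell type was checked against its markers. The superficial zone gene Prg4, which encodes lubricin, averaged 22.4 ± 0.9 CPM in shear and 18.8 ± 1.4 CPM in static libraries (SD, n = 3 each). It passed the test (log2 fold change 0.25), but not with library totals alone (edgeR adjusted p = 0.062) or without shear replicate 3 (0.071), static replicate 1 (0.055) or static replicate 3 (0.096). Among the 5 superficial zone markers, all tested, 3 rose, beside 10.8% of all genes tested. Besides Prg4 these were Abi3bp (log2 fold change 0.41) and Thbs4 (0.17), while Clu (0.0078) and Cilp (-0.22) did not pass. Of 8 chondrocyte markers 5 were tested, 1 rose and 1 fell, and the 8 summed to 590.6 to 620.8 CPM in shear and 601.8 to 614.8 CPM in static libraries. Most of that sum was Col11a1, a minor fibrillar collagen gene, so the sum says little of the other markers. Col11a1 averaged 581.7 ± 16.6 CPM in shear and 586.2 ± 6.4 CPM in static libraries (SD, n = 3 each) and did not pass the test. The chondrocyte transcription factor gene Sox9 rose, with 15.6 ± 0.4 CPM in shear and 6.54 ± 0.26 CPM in static libraries (SD, n = 3 each; log2 fold change 1.26). Acan, the aggrecan gene, fell, with 11.3 ± 0.6 CPM in shear and 14.2 ± 0.6 CPM in static libraries (SD, n = 3 each; log2 fold change -0.34). The part of this marker change in the KLF values was not tested. The main cartilage collagen gene Col2a1 had few counts, 4 to 6 in shear and 6 to 8 in static libraries. Hapln1 and Col9a1, other chondrocyte markers, had at most 2 counts in any library. Matn3 had 14 to 18 counts in shear and 15 to 30 counts in static libraries, and Comp 6 to 11 and 9 to 18. Neither Matn3 nor Comp passed the test. The 5 smooth muscle markers summed to 1334 to 1393 CPM in shear and 1343 to 1425 CPM in static libraries, and edgeR called 0 of them, also at an unadjusted p under 0.05 (log2 fold changes from -0.06 to 0.06). Per exon length (TPM) all 5 lay above Prg4 and Acan. The lowest, Myh11, averaged 27.4 ± 1.9 TPM in shear and 29.2 ± 0.4 TPM in static libraries (SD, n = 3 each). Prg4 averaged 13.0 ± 0.6 and 11.2 ± 0.8 TPM, while Col11a1, Thbs4 and Clu lay above Myh11. These markers thus do not establish the labelled cell type. In bulk libraries such as these, fewer cells of a type and less RNA per cell cannot be told apart.

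The pair known from endothelium gave different results here. Klf2 (chromosome 16, 19223087 to 19225037; positions are those of the deposited table, with no build stated) was the scarcest member. It had 53, 82 and 62 counts in the shear libraries and 55, 30 and 34 counts in the static libraries. The groups overlap, because static replicate 1 had more Klf2 counts than shear replicate 1. Klf2 averaged 1.98 ± 0.48 CPM in shear and 1.154 ± 0.401 CPM in static libraries (SD, n = 3 each; log2 fold change 0.78, SE 0.26, edgeR adjusted p = 0.038). Its call depended on single libraries. The adjusted p was 0.22 without shear replicate 2, 0.073 without shear replicate 3, 0.15 without static replicate 2 and 0.12 without static replicate 3, with log2 fold changes from 0.58 to 1.10 over the 6 fits that leave out 1 library.

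Klf4 (chromosome 5, 72283313 to 72287669) was the most highly counted member and did not pass the test. It stood at 55.7, 49.4 and 53.1 CPM in the shear libraries and at 64.9, 53.0 and 49.97 CPM in the static libraries. The groups overlap, and static replicate 1 stands above the other static libraries. The log2 fold change was -0.09 (SE 0.07; edgeR adjusted p = 0.49), and it became 0.04 without static replicate 1. The ratio of Klf2 to Klf4 counts within a library does not depend on the scaling. On the log2 scale this ratio was -5.14, -4.30 and -4.83 in shear and -5.33, -5.93 and -5.67 in static libraries, so every shear value lay above every static value. The difference, shear minus static, was 0.89, with an exact permutation p of 0.1 (two-sided, n = 3 each), the smallest that 3 against 3 libraries can give.

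Klf7, Klf5 and Klf6, from the branch of the family that holds many activators, all changed. For these genes RefSeq start sites were in hand (assembly GRCr8), and the 250 bases before each start are printed 5′ to 3′ on the gene's own strand, because Klf7 and Klf5 moved in opposite directions and the Klf6 window holds a CArG box, the letters that serum response factor recognises. Capitals mark matches on either strand to the box CACCC, to the GC box with the letters GGGCGG, to the CArG box or to the MEF2 motif, and no matches overlap each other. Klf7 is read from chr9:73020057-73020306 (minus strand), Klf5 from chr15:82471831-82472080 (plus strand) and Klf6 from chr17:69458479-69458728 (minus strand).
Klf7: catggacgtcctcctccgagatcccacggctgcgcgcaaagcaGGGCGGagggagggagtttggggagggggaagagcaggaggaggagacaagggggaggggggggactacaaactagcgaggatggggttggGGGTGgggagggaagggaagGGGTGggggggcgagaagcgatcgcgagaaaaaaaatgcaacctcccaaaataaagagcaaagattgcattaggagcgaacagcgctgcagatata
Klf5: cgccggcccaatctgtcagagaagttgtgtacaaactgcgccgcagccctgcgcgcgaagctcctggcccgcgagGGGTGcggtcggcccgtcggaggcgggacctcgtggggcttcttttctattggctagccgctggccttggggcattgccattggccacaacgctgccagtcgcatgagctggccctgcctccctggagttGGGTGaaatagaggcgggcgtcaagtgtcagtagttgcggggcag
Klf6: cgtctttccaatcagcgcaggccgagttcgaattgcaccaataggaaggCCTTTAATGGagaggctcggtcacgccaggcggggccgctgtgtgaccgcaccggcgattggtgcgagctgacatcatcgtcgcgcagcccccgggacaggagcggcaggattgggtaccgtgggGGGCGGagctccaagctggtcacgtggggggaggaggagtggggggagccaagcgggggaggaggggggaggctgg

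The windows of Klf7 and Klf5 hold CACCC at 2 places each, and 49.2% of 33469 RefSeq promoter windows of this length hold it at least once. The window of Klf3, which did not pass the test, holds CACCC at 4 places, and that of Klf9 at 1. GGGCGG stands at 1 place in the Klf7 window and 1 in the Klf6 window, and 30.5% of all windows hold it. In the Klf11 window it stands at 7 places. The CArG letters begin 201 bases before the Klf6 start, and 1.5% of all windows hold such letters. They were at 0 places in the windows of Klf3, Klf5, Klf7, Klf9 and Klf11, and Klf6 was picked for printing because of them. The MEF2 motif was at 0 places in the windows of Klf3, Klf5, Klf6, Klf7, Klf9 and Klf11, against 0.523% of all windows. Such matches describe letters only. Klf2, Klf10 and Klf13 were not matched, and the Klf4 window is not used here because its listed start may lie within the transcribed part.

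Klf7 (chromosome 9, 70740480 to 70787913), a broadly expressed activator known for roles in neurons and in holding back fat cell differentiation, rose with the smallest adjusted p of the 10 members. It stood at 46.6, 48.0 and 47.2 CPM in the shear libraries and at 28.5, 29.1 and 25.8 CPM in the static libraries. The groups lie far apart and the shear libraries are nearly level. The log2 fold change was 0.77 (SE 0.06; edgeR adjusted p = 9.4e-10). Klf5 (chromosome 15, 83703791 to 83722921), an activator tied to proliferation of epithelial and smooth muscle cells, was the member that fell. It stood at 16.0, 17.8 and 16.6 CPM in the shear libraries and at 27.1, 23.4 and 26.7 CPM in the static libraries. Every shear library lies below every static library. The log2 fold change was -0.62 (SE 0.08; edgeR adjusted p = 1.3e-06). Klf6 (chromosome 17, 67887939 to 67945037), known as an early-response gene in wounded tissue, rose by less. It stood at 28.3, 28.0 and 29.7 CPM in the shear libraries and at 22.1, 23.3 and 24.7 CPM in the static libraries. The groups do not overlap, and the log2 fold change was 0.30 (SE 0.07; edgeR adjusted p = 0.0022).

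Klf9, Klf10, Klf11 and Klf13, of the SIN3-binding branch, rose, while Klf16 of the same branch had a log2 fold change of -0.20 and did not pass the test (edgeR adjusted p = 0.24), and Klf14 had too few counts to be tested. Klf13 (chromosome 1, 124772596 to 124803363), known for its part in chemokine expression in T cells, had the largest log2 fold change of the 10 members. It stood at 14.1, 14.6 and 12.2 CPM in the shear libraries and at 7.74, 7.59 and 7.39 CPM in the static libraries. The static libraries are nearly level and all shear libraries lie above them. The log2 fold change was 0.85 (SE 0.10; edgeR adjusted p = 4.1e-07). Klf9 (chromosome 1, 240908483 to 240933198), a target of glucocorticoid and thyroid hormone receptors, stood at 38.6, 40.1 and 42.0 CPM in shear and at 31.4, 28.2 and 32.3 CPM in static libraries. The groups do not overlap, and the log2 fold change was 0.39 (SE 0.06; edgeR adjusted p = 6.5e-05).

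Klf10 and Klf11, first described as early genes of the TGF-beta response, gave rises of similar size. Klf10 (chromosome 7, 77156006 to 77162148) stood at 15.7, 14.5 and 15.4 CPM in shear and at 13.0, 11.8 and 11.9 CPM in static libraries. All shear libraries lie above all static ones, with a log2 fold change of 0.32 (with SE 0.08; edgeR adjusted p = 0.0086). Klf11 (chromosome 6, 43829945 to 43841651) stood at 7.86, 8.39 and 8.08 CPM in shear and at 5.89, 6.75 and 6.44 CPM in static libraries. The groups do not overlap here either, and the log2 fold change was 0.35 (SE 0.11; edgeR adjusted p = 0.024). The call of Klf11 ended without shear replicate 2 (adjusted p = 0.077), shear replicate 3 (0.057) or static replicate 1 (0.11), and with library totals alone (0.056).

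Klf3 (chromosome 14, 45142769 to 45165207), the CtBP-dependent repressor that holds back fat and red-cell genes, did not pass the test. It stood at 17.1, 17.6 and 18.4 CPM in the shear libraries and at 15.6, 17.4 and 18.2 CPM in the static libraries. The ranges overlap, and the lowest value is that of static replicate 1. The log2 fold change was 0.05 (SE 0.08; edgeR adjusted p = 0.72).

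**Figure D2:**
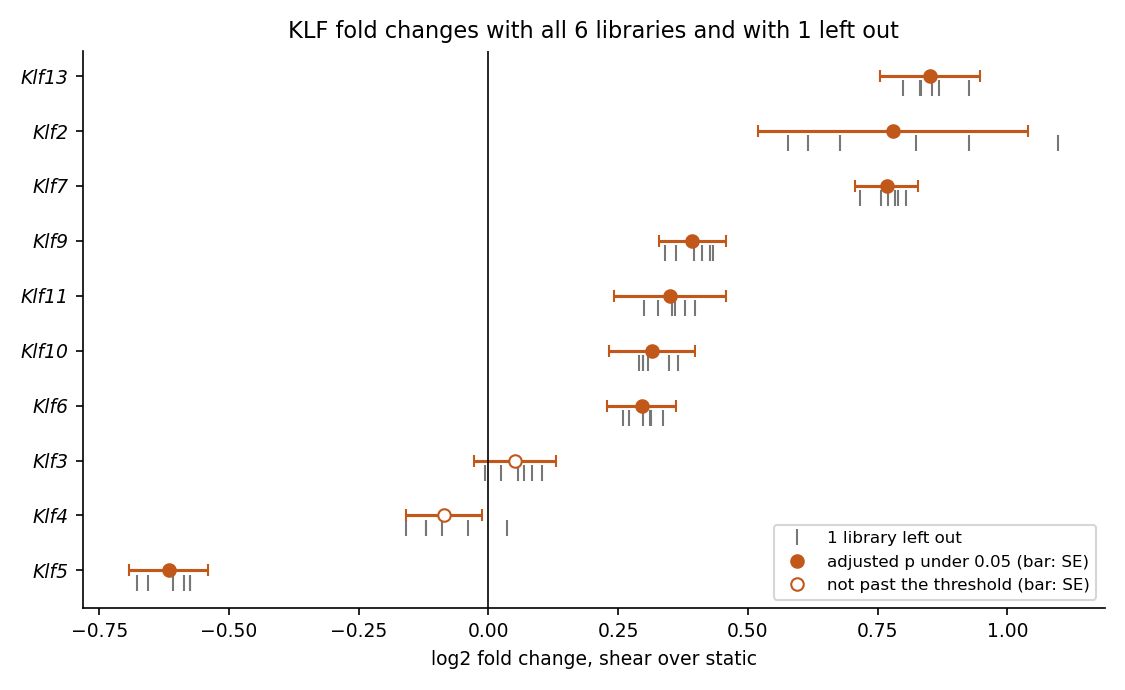
Log2 fold change, shear over static, of each KLF gene with its SE (filled circles passed an adjusted p of 0.05, open circles did not), and the value when 1 of the 6 libraries is left out (grey ticks). The ticks of Klf2 spread from 0.58 to 1.10, those of Klf7 from 0.72 to 0.80, and those of Klf3 and Klf4 fall on both sides of 0.

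Levels of different members can be compared per length, as TPM computed with the summed exon length of the table. In shear libraries Klf13 and Klf4 came first, with 42.0 ± 3.8 and 41.2 ± 2.6 TPM (SD, n = 3), and their ranges overlap. Klf9 (29.7 TPM), Klf7 (26.5 TPM) and Klf6 (18.6 TPM) followed, each with a range clear of its neighbours. Klf10 (9.39 TPM) and Klf5 (9.11 TPM) could not be separated by their ranges. Klf3 had 6.57 TPM, and Klf11 (3.97 TPM) and Klf2 (3.47 TPM) overlapped at the low end.

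In static libraries Klf4 alone led, with 44.6 ± 5.9 TPM (SD, n = 3), clear of Klf13 at 23.8 ± 0.4 and Klf9 at 23.1 ± 1.6 TPM, whose ranges overlap. Klf7 (15.9 TPM), Klf6 (15.5 TPM) and Klf5 (14.3 TPM) overlapped in turn, and Klf10 (7.71 TPM), Klf3 (6.47 TPM), Klf11 (3.18 TPM) and Klf2 (2.06 TPM) were each clear of the next. The 10 genes summed to 190.5 ± 1.7 TPM in shear and 156.5 ± 6.4 TPM in static libraries (SD, n = 3 each). Klf13 made up 22.01 ± 1.84% of that sum in shear and 15.2 ± 0.5% in static libraries (SD, n = 3 each). Klf4 made up 21.6 ± 1.4% in shear and 28.4 ± 2.6% in static libraries, and Klf5 4.78 ± 0.25% in shear and 9.10 ± 0.57% in static libraries. The table gives Klf13 an exon length of 602 bases and Klf2 one of 1056 bases, the shortest of the 10, while Klf3 has 4987 bases. The levels per length of these genes depend on those annotated lengths, whereas the fold changes do not.

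**Figure D3:**
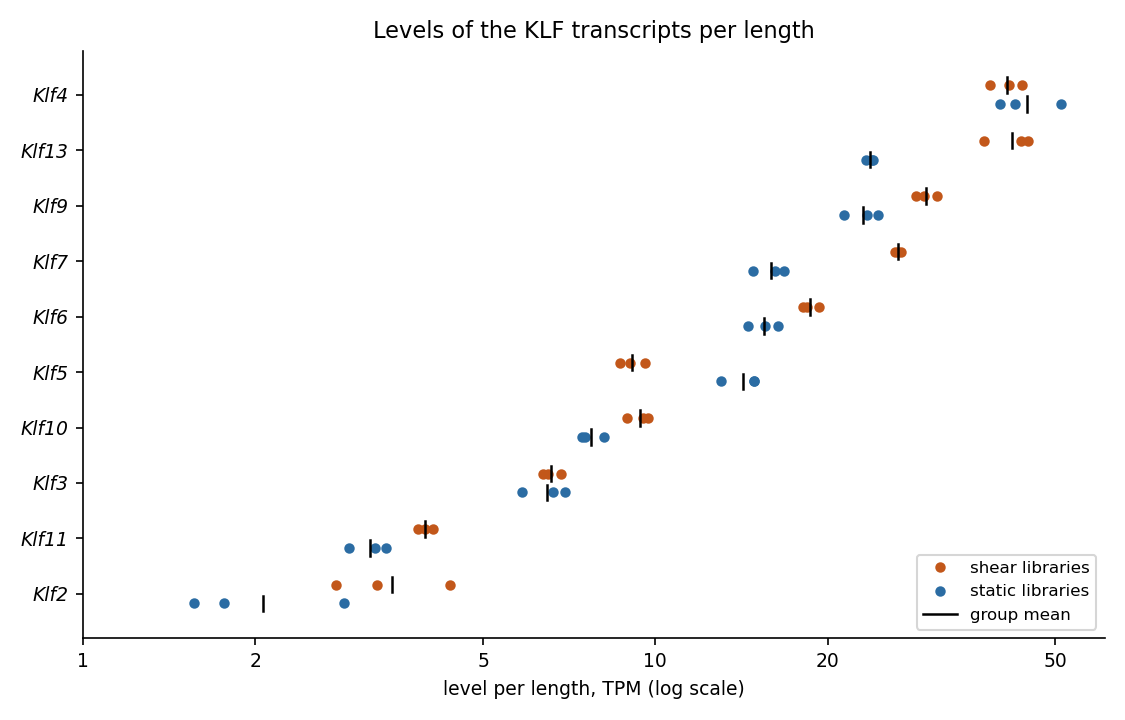
Level per length (TPM, log scale) of each KLF gene in the 3 shear libraries (orange, upper row of each gene) and the 3 static libraries (blue, lower row), with black ticks for the group means. Klf4 leads in static libraries, and Klf13 and Klf4 overlap at the top in shear libraries, while Klf2 is lowest in both.

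The genes whose pattern over the 6 libraries was most like that of the steepest riser and of the faller were sought among 9877 candidates, by the root mean square difference of log2 CPM centred on each gene's mean. For Klf13 the nearest were Insig1, a sterol-sensing regulator (0.063), the growth-restraining gene Btg2 (0.065) and the EGF-family ligand gene Hbegf (0.069), where the median candidate differed by 0.44. Their log2 fold changes were 0.90, 0.74 and 0.85. For Klf5 the nearest were Pik3r3, a regulatory subunit gene of PI3-kinase (0.052), Syde2 (0.061) and Mef2c (0.063), where the median candidate differed by 0.33. Their log2 fold changes were -0.60, -0.54 and -0.65. In both sets, fold changes near that of the member follow from the way the genes were picked.

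Of 7 other KLF genes 2 had enough counts to be tested, and 0 were called by edgeR at an adjusted p under 0.05 (0 at an unadjusted p under 0.05, and 0 by DESeq2 or limma-voom). Klf12 had 9.13 ± 1.14 CPM in shear and 9.61 ± 0.45 CPM in static libraries (log2 fold change -0.07), and Klf16 had 6.09 ± 0.38 CPM in shear and 7.01 ± 0.16 CPM in static libraries (-0.20; SD, n = 3 each). Klf17 had no count in any library. Of the related SP factors, which bind the same GC-rich boxes, 5 of 9 were tested and 1 rose, beside 10.8% of all genes tested. Sp4 rose, with 5.70 ± 1.15 CPM in shear and 3.67 ± 0.44 CPM in static libraries (SD, n = 3 each; log2 fold change 0.63, SE 0.15, edgeR adjusted p = 0.0038). Its adjusted p was 0.052 without shear replicate 2. Sp1 (-0.06) and Sp3 (-0.06), the abundant members, did not pass the test.

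Transcripts of the cascade that drives KLF2 and KLF4 in endothelium, and of genes that restrain it, were detected in these cells. Of these 15 genes, all tested, 4 rose and 2 fell (median log2 fold change 0.0035). Among all genes tested 10.8% were higher and 7.71% lower. The list mixes drivers with restrainers such as Krit1 and Hdac9, so its counts give no direction for the cascade. This list and the others around the KLF factors were chosen with earlier results of these data known. Mapk7, which encodes ERK5, had 5.85 ± 0.48 CPM in shear and 4.03 ± 0.90 CPM in static libraries (SD, n = 3 each; log2 fold change 0.54, SE 0.15, edgeR adjusted p = 0.012). Its call ended without shear replicate 3 (adjusted p = 0.057) or static replicate 3 (0.088). The upstream kinase gene Map3k2 (0.49), the adaptor gene Krit1 (0.48), whose product restrains this cascade in endothelium, and Mef2a (0.28) also rose. Mef2c fell to 15.4 ± 1.2 CPM in shear libraries, against 24.2 ± 0.4 CPM in static libraries (SD, n = 3 each; log2 fold change -0.65). Hdac9, a histone deacetylase gene that restrains MEF2 factors, fell to 0.945 ± 0.105 CPM in shear libraries, against 2.01 ± 0.20 CPM in static libraries (-1.09; its mean level lies below the limit set for naming, and it was named after its values were seen). Map2k5, which encodes the kinase of ERK5, had a log2 fold change of -0.01 and did not pass. The remaining genes of this list did not pass either. They were Map3k3 (0.0035), Mef2d (-0.08), Heg1 (0.28), Ccm2 (-0.04), Pdcd10 (0.10), Hdac4 (-0.03), Hdac5 (-0.13) and Hdac7 (0.0065).

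Some genes that KLF2 and KLF4 control in endothelium changed as well. Edn1, the endothelin gene that KLF2 lowers in endothelium, had 4.73 ± 0.92 CPM in shear and 9.26 ± 0.13 CPM in static libraries (SD, n = 3 each; log2 fold change -0.97). Thbd, the thrombomodulin gene that KLF2 raises there, fell too (-0.42), with an adjusted p of 0.068 without static replicate 2. The VEGF receptor gene Kdr also fell (-0.98). The adhesion molecule gene Vcam1 (0.42) and the argininosuccinate synthase gene Ass1 (0.38) had positive log2 fold changes and did not pass. The nitric oxide synthase gene Nos3 had 2 to 6 counts in shear and 0 to 8 counts in static libraries and was too low to test. Of 9 endothelial markers 8 were matched, 3 were tested and 1 fell (Kdr), and the 8 summed to 5.24 to 9.22 CPM in shear and 9.85 to 11.98 CPM in static libraries. Kdr alone averaged 3.68 ± 1.11 CPM in shear and 7.28 ± 0.64 CPM in static libraries (SD, n = 3 each). The lower sum thus largely follows Kdr and says little of the other markers. Emcn and Cldn5 were at 0 in every library, Cdh5 and Tie1 had at most 2 counts, and Esam at most 6. Tek had 72, 115 and 124 counts in shear and 95, 120 and 124 counts in static libraries. Vwf had 10 to 18 counts in shear and 16 to 20 counts in static libraries. Neither Tek nor Vwf passed the test.

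Several ubiquitin ligases are known to act on KLF proteins. Of 6 ligase genes tested, 4 rose and 0 fell (median log2 fold change 0.35), beside 10.8% higher and 7.71% lower among all genes tested. Smurf1 had 148.6 ± 4.6 CPM in shear and 74.6 ± 3.0 CPM in static libraries (SD, n = 3 each; log2 fold change 0.99, SE 0.05, edgeR adjusted p = 2.6e-13). Smurf2 (0.59) and Fbxw7 (0.52), whose product marks KLF2 and KLF5 for degradation, rose as well. The small rise of Itch (0.17) lost its call with upper-quartile factors (adjusted p = 0.060), library totals alone (0.12), and without shear replicate 2 (0.10), static replicate 1 (0.063) or static replicate 2 (0.074). Wwp1 (-0.06), a ligase for KLF2 and KLF5, did not pass. Of 9 cofactor genes, all tested, 0 were called by edgeR at an adjusted p under 0.05 (0 at an unadjusted p under 0.05, and 0 by DESeq2 or limma-voom), with log2 fold changes from -0.09 (Crebbp) to 0.30 (Kat2b, SE 0.26, with only 28 to 48 counts per library). They include the SIN3 gene Sin3a (0.09) and the acetyltransferase gene Ep300 (0.19), which passed only without static replicate 3 (0.30, adjusted p = 0.038).

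**Figure D4:**
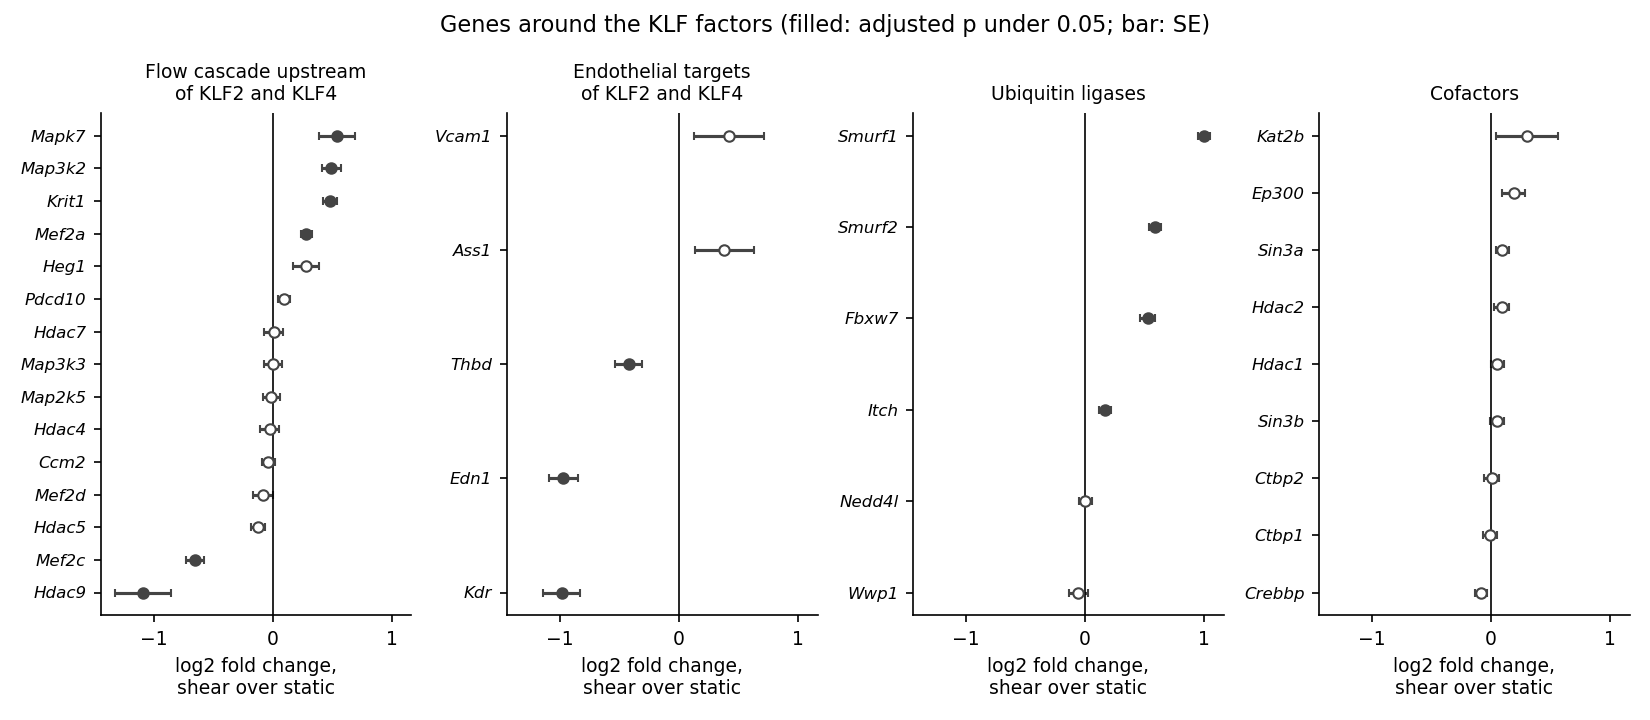
Log2 fold change, shear over static, with its SE for tested genes of 4 lists around the KLF factors (filled circles passed an adjusted p of 0.05, open circles did not). Smurf1 (0.99), Smurf2 (0.59) and Fbxw7 (0.52) lie to the right, Mef2c (-0.65) and Edn1 (-0.97) to the left, and all 9 cofactors are open circles.

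Among 7 tested genes around the hormone control of Klf9, receptor genes included, 4 rose and 0 fell (median log2 fold change 0.20). Over all genes tested, 10.8% were higher and 7.71% lower. The thyroid hormone receptor genes Thra (0.05) and Thrb (-0.075) did not pass. Sgk1, a kinase gene, had 172 ± 4 CPM in shear and 124 ± 3 CPM in static libraries (SD, n = 3 each; log2 fold change 0.47). Tsc22d3 (0.48), the clock gene Per1 (0.28) and the glucocorticoid receptor gene Nr3c1 (0.20) rose as well. Fkbp5, often used as a readout of glucocorticoid action, had a log2 fold change of -0.16 and missed the threshold (edgeR adjusted p = 0.0502). It passed with halved counts (adjusted p = 0.0495), upper-quartile factors (0.021) and library totals alone (0.0088). Without shear replicate 2 or without static replicate 3, 2 of the 4 rises remained past the threshold: Tsc22d3 had adjusted p-values of 0.080 and 0.090, and Per1 of 0.15 and 0.17. Per1 also missed it without static replicate 1 (0.051) and with library totals alone (0.062).

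Of 11 TGF-beta signalling genes around Klf10 and Klf11, 4 rose and 3 fell (median log2 fold change -0.02). Over all genes tested, 10.8% were higher and 7.71% lower. The corepressor gene Ski (0.64), the receptor gene Tgfbr1 (0.30), the inhibitory Smad7 (0.25) and Skil (0.18) rose. Smad3 (-0.58), which carries the signal to the nucleus, the receptor gene Tgfbr2 (-0.23) and the ligand gene Tgfb2 (-0.24) fell. The call of Tgfb2 ended without shear replicate 1 (adjusted p = 0.11), shear replicate 2 (0.14), static replicate 2 (0.088) or static replicate 3 (0.17). The ligand gene Tgfb1 had a log2 fold change of -0.02 and did not pass.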

How the data were processed

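Per the labels' protocols, total RNA was isolated with Trizol and turned into stranded mRNA libraries. The authors deposited whole-number counts per gene and library, with the summed exon length. The tools in the submitters' processing notes are edgeR 3.12.1, Subread 1.5.1, featureCounts and Trimmomatic 0.36. No aligner, build, annotation, strand setting or handling of read pairs is stated there. Of counts from 1 to 20, 71.4% to 72.2% were even, so a run with halved counts was added. No member's exons overlap those of another gene in the table. Replicate pairs differed beyond counting noise (chi-square over degrees of freedom 5.61 to 8.25, genes with at least 20 counts), and none was merged.

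Counts were tested with edgeR 4.0.16 (R 4.3.3): filterByExpr with a minimum count of 10, TMM factors, and the two-sided quasi-likelihood test of shear against static over all 6 libraries without covariates, with Benjamini-Hochberg adjustment over 13945 genes. SE values were derived by dividing the absolute fold change (log2) by the root of F. TPM used the table's exon lengths. DESeq2 1.42.0 and limma 3.58.1 served as alternatives. The genes named are the members, listed relatives and cofactors (called ones whose mean log2 CPM reaches 1, up to 4 per list, and others as not called) and the 3 genes nearest in pattern. Naming Mef2a and all called genes of the TGF-beta list goes beyond the limit of 4. Sox9, Acan, Col11a1, Matn3, Comp, Tek, Tie1, Vwf, Esam, Thra and Thrb were named after their values were seen. So were Abi3bp, Thbs4, Clu, Cilp, Myh11, Map3k3, Mef2d, Heg1, Ccm2, Pdcd10, Hdac4, Hdac5 and Hdac7. 1 listed gene is not reported here, and no count or median is given over its list. Members and lists were chosen with earlier results of these data known. Promoter sequences are RefSeq's (GRCr8). Of 3 macrophage, 1 epithelial and 1 adipocyte marker tested, edgeR called 0 (1 macrophage marker had an unadjusted p under 0.05). Of 3 tested skeletal muscle markers 2 fell and of 5 superficial zone markers 3 rose, beside 7.71% lower and 10.8% higher among all genes tested.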

Additional observations from a re-analysis of the deposited data

How the results depend on the processing

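Over 14 alternatives, Klf6, Klf7, Klf9, Klf10 and Klf13 stayed higher and Klf5 stayed lower past the threshold in every one: DESeq2 size factors, upper-quartile factors, library totals alone, no filter on low counts, DESeq2, limma-voom, a replicate block, halved counts and each library left out. Of 140 member results, 129 kept direction and side of the threshold. With library totals alone 1730 genes were lower and Klf11 missed the threshold (log2 fold change 0.2998, adjusted p = 0.056). With 1 library left out, Klf2 ranged from 0.58 to 1.10, Klf11 from 0.3003 to 0.398, Klf3 from -0.0074 to 0.10 and Klf4 from -0.16 to 0.036; Klf3 and Klf4 changed sign without static replicate 1 (-0.0074 and 0.036). The members called higher numbered 5 without shear replicate 2 or shear replicate 3. The cause of these changes was not tested. Same-numbered libraries did not deviate together over the genes tested (correlations -0.019, -0.019 and -0.0005), so no pairing by number was seen. With 3 libraries a group such values cannot exclude a shared culture, animal or batch. With the replicate block 1372 genes were higher and 964 lower, and Klf2 had a log2 fold change of 0.785 (edgeR adjusted p = 0.054). Of 685 results for a list of other named genes 652 kept their side and direction, 23 lost and 4 gained the threshold, and 6 changed direction: with 1 library left out Col11a1 ranged from -0.0201 to 0.0138, Map2k5 from -0.044 to 0.034, Tgfb1 from -0.10 to 0.049 and Wwp1 from -0.12 to 0.0043. That list leaves out Matn3, Comp, Tek, Vwf, Thra, Thrb, Abi3bp, Thbs4, Clu, Cilp and Myh11. It also leaves out Map3k3, Mef2d, Heg1, Ccm2, Pdcd10, Hdac4, Hdac5 and Hdac7. Klf2 had the fewest counts of the members, 30 to 82 per library.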

Other observations

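Family members under the limit for testing gave few counts. Klf15, a glucocorticoid-responsive metabolic regulator, had 6, 2 and 2 counts in shear and 10, 14 and 10 counts in static libraries. It was not tested with all 6 libraries, and where a fit without 1 library or without the filter on low counts tested it, the log2 fold change ran from -2.37 to -1.42, past the threshold without shear replicate 1 (edgeR adjusted p = 0.034) and not in the other fits (0.087 to 0.19). Klf1, the erythroid factor, had 10, 1 and 2 counts in shear and 0, 2 and 8 counts in static libraries. Klf8 had 4 to 6 counts in shear and 4 to 8 counts in static libraries. Klf14 had 4, 0 and 0 counts in shear and 0, 0 and 6 counts in static libraries. The bone-cell factor gene Sp7 was tested, with 27, 19 and 17 counts in shear and 10, 28 and 10 counts in static libraries, and its log2 fold change of 0.44 (with SE 0.42; edgeR adjusted p = 0.54) did not pass.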
